A study of Fundulus heteroclitus with 20 samples.

Results

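The Fos and Jun genes of the adult mummichog were examined in the midbrain/diencephalon 1 h after a mechanical lesion. Members were taken by the gene descriptions of the deposited table, which had to name c-Fos, a Fos-like or Fos-related protein, a Jun protein, transcription factor AP-1 or a Jun dimerization protein. The search returned 9 of the 13679 genes in the table. One of these is usf2, which entered through the words "c-fos interacting" in its description and encodes a transcription factor of another family. The 8 genes left are called the family below. No gene described as FosB, a Fos-related antigen or JunB was returned, so the 8 need not be all Fos and Jun genes of the mummichog. Each of 10 fish gave total RNA of its lesioned and of its contralateral intact hemisphere, 20 libraries in all. Adult fish were bought from a supplier and anesthetized with 2-phenoxyethanol. A needle was passed through the optic tectum and tegmentum of one side into the hypothalamus below, and both hemispheres were collected after recovery in tank water. The intact hemisphere thus shares the anesthesia, the handling and the animal with the lesioned one, and no uninjured fish were in these libraries. The labels place every lesioned hemisphere on the right and every intact one on the left, whereas the study's methods divide both evenly between sides, and by the labels side and lesion cannot be told apart.

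AP-1 is a dimer of leucine zipper proteins that binds DNA. Fos proteins do not pair with each other and need another partner, such as a Jun protein. Jun proteins can pair with themselves or with Fos. The Fos genes are classic immediate early genes, switched on within minutes by neuronal activity, growth factors or injury without new protein synthesis. In mammals FOSL1 lacks the transactivation domain of c-Fos, JunD is expressed broadly at rest, c-Jun is induced in injured neurons, and JDP2 forms dimers with Jun proteins that repress AP-1 targets. Teleosts carry duplicates of many of these genes.

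Between 9213580 and 11070103 counts per library fell on the listed genes, far fewer than the mapped reads per sample that the study's methods report. The intact hemisphere of fish 3 stood apart, at 41.3 on the first principal component (13.5% of the variance) against -22.4 to 18.1 in the other libraries. Of the 6 neuronal markers searched, all were tested and none was called by edgeR or DESeq2 (1 at an unadjusted p-value under 0.05), and their summed level was 2830 to 3166 CPM (CPM is a gene's count relative to the scaled total of its library) in lesioned and 2820 to 3286 CPM in intact hemispheres. Each hemisphere also held radial glia, oligodendrocyte, vascular and microglial transcripts, so the values are averages over cell types, and more cells of a type cannot be told apart from more RNA per cell.

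Of the 8 genes, 6 rose in lesioned hemispheres with an adjusted p no larger than 0.1 in edgeR's quasi-likelihood test with fish as a block. Over all 10513 genes tested, 1.28% were called higher and 1.38% in either direction. An unadjusted p-value under 0.05, in either direction, was found for 1229 of the 10513. All 8 passed the filter on low counts. The 6 were fosl1, 2 of the 3 genes described as c-Fos-like, the jun-D-like gene, the AP-1-like gene, which is the c-Jun type, and 1 of the 2 Jun dimerization protein genes. None was called lower at 0.1, where 0.0951% of all genes were, although 1 had an unadjusted p-value under 0.05. DESeq2 also called 6 of the 8 higher and 0 lower, with 175 genes called in all, 165 of them higher. The median log2 fold change of the 8 genes was 0.42, against -0.01 over all genes tested. The gene usf2 had a log2 fold change of 0.01 ± 0.05 (SE, adjusted p = 0.971 by edgeR).

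A later RefSeq annotation (assembly MU-UCD_Fhet_4.1, not the build the counts were made on) lists 7 of the 8 genes and names 4 of them. LOC105929553 is fosab there, LOC105917182 is fosaa, LOC105938309 is jund and LOC105917165 is jdp2a, and these names are used below. LOC105925309 is marked as a pseudogene in the deposited table and as protein-coding in the later annotation. The gene without a match there is fosl1, so its place in that annotation is not known.

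The largest change among the 8 was in fosl1, the Fos-like gene 1. The lowest, median and highest levels were 19.5, 25.9 and 38.9 CPM in lesioned hemispheres, against 3.34, 7.24 and 26.8 CPM in intact hemispheres. Of the intact hemispheres, 9 lay below every lesioned one, and that of fish 5 lay among the lesioned ones. The mean was 27.5 ± 6.24 CPM in lesioned and 8.81 ± 6.85 CPM in intact hemispheres (SD, n = 10 fish). The log2 fold change was 1.82 ± 0.24 (SE, adjusted p = 0.000946 by edgeR), a 3.52-fold rise and the increase of rank 5 among all genes tested. The gene was higher in 9 of 10 fish (p = 0.00391 when the signs of the ratios were flipped in an exact two-sided permutation test).

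The c-Fos-like gene fosab rose 2.70-fold. Its lowest, median and highest levels were 748, 912 and 1569 CPM in lesioned hemispheres, against 179, 339.5 and 785 CPM in intact hemispheres. The highest intact level was again that of fish 5, and 8 lesioned hemispheres lay above it. The mean was 998 ± 272 CPM in lesioned and 389 ± 174 CPM in intact hemispheres (SD, n = 10 fish), which is a log2 fold change of 1.43 ± 0.16 (SE, adjusted p = 0.000347 by edgeR). It was the only one of the 8 genes that was higher in all 10 fish (exact sign-flip permutation test, p = 0.00195, the smallest that 10 fish allow), as were 0.837% of all genes tested. In none of the 8 genes did all lesioned hemispheres lie above all intact ones, as they did in 0.0666% of all genes.

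**Figure D1:**
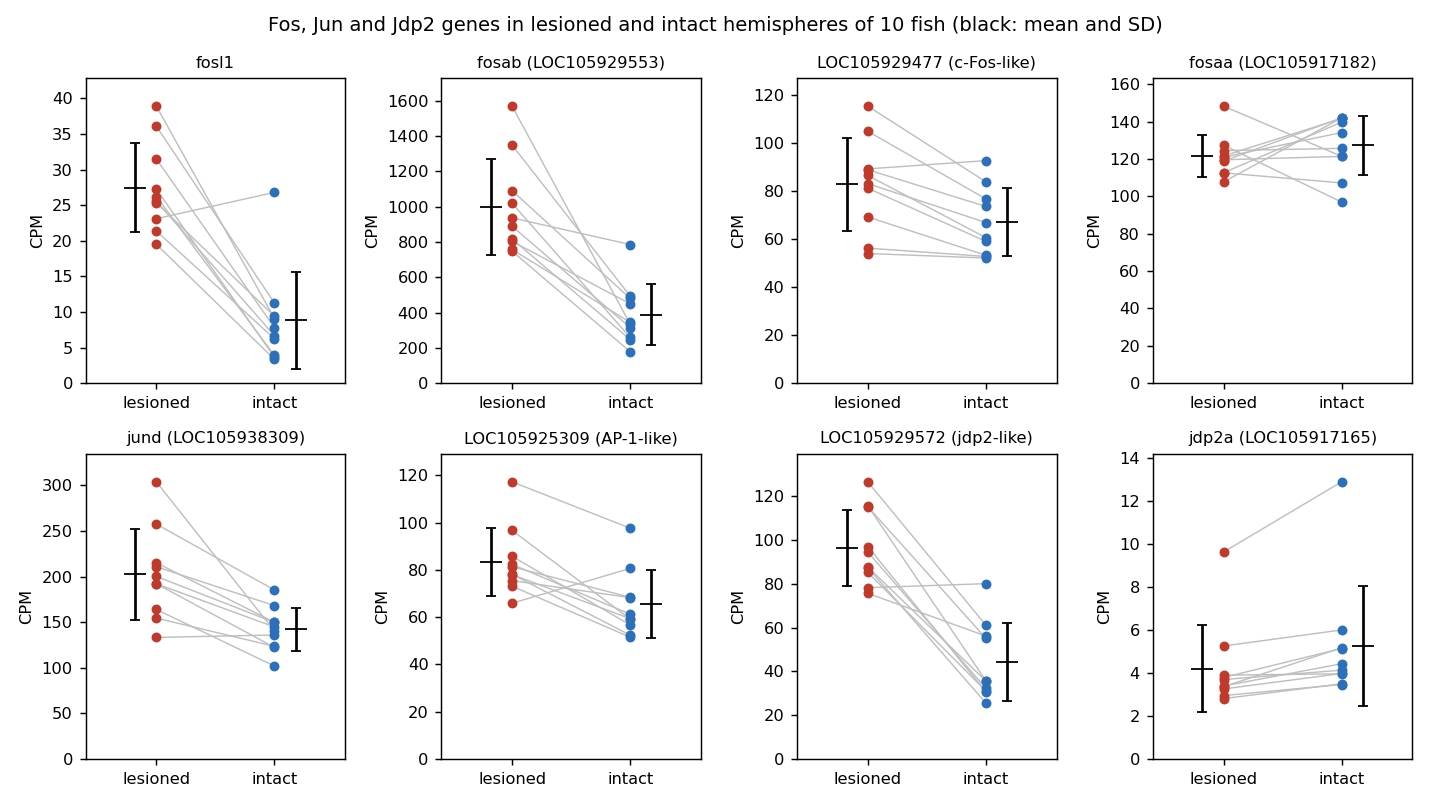
Level of each gene in CPM (vertical axis, from 0) in the lesioned (red, left) and intact (blue, right) hemispheres, with a line joining the hemispheres of each of the 10 fish and black bars for the mean and SD. Lines fall to the right in 10 of 10 fish for fosab and rise to the right in 10 of 10 fish for jdp2a.

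The other c-Fos-like genes moved less or not at all by the test. LOC105929477 was at 53.9, 84.7 and 115 CPM (lowest, median and highest) in lesioned hemispheres and at 52.1, 63.7 and 92.5 CPM in intact hemispheres. The groups overlapped over most of their range, yet 9 of 10 fish were higher on the lesioned side. The log2 fold change was 0.30 ± 0.06 (SE, adjusted p = 0.0161 by edgeR), and the call was lost without the block of fish (adjusted p = 1.00). The gene fosaa was at 108, 120.2 and 148 CPM in lesioned hemispheres and at 96.9, 129.9 and 142 CPM in intact hemispheres. Its log2 fold change was -0.06 ± 0.07 (SE, adjusted p = 0.786 by edgeR), and it was higher in 3 fish and lower in 7. The description c-Fos-like is shared by 3 genes and Jun dimerization protein 2-like by 2, and how reads that match several copies were counted is not given in the sources used here.

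The Jun genes rose by smaller amounts than fosl1 and fosab. The gene jund was at 133, 196 and 304 CPM in lesioned hemispheres, against 102, 143 and 185 CPM in intact hemispheres, and 7 lesioned hemispheres lay above the highest intact one. Its mean was 202 ± 49.8 CPM in lesioned and 142 ± 23.7 CPM in intact hemispheres (SD, n = 10 fish), which is a log2 fold change of 0.49 ± 0.08 (SE, adjusted p = 0.00451 by edgeR). It was higher in 9 of 10 fish, and without the block its adjusted p was 0.101. The c-Jun type gene LOC105925309 was at 65.9, 79.7 and 117 CPM in lesioned hemispheres and at 51.5, 60.3 and 97.6 CPM in intact hemispheres. Only 1 lesioned hemisphere lay above the highest intact one, and 9 of 10 fish were higher on the lesioned side. Its log2 fold change was 0.36 ± 0.08 (SE, adjusted p = 0.0458 by edgeR). This call was the least stable of the 6. It was lost without fish 1, 4 or 10 (adjusted p = 0.124, 0.120 and 0.125) and without the block (0.605), and over all 16 other fits the adjusted p ran from 0.000522 to 0.605.

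Of the 2 genes described as Jun dimerization protein 2-like, 1 rose and 1 was not called. LOC105929572 was at 75.6, 91.1 and 127 CPM in lesioned hemispheres, against 25.5, 35.7 and 80.0 CPM in intact hemispheres. As in fosl1, 9 intact hemispheres lay below every lesioned one, and fish 5 was the exception. The mean was 96.3 ± 17.3 CPM in lesioned and 44.3 ± 17.7 CPM in intact hemispheres (SD, n = 10 fish), a 2.26-fold rise (log2 fold change 1.18 ± 0.16 SE, adjusted p = 0.00106 by edgeR).

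The second copy, jdp2a, had 27 to 129 counts per library. It was at 2.80, 3.54 and 9.61 CPM in lesioned hemispheres and at 3.46, 4.27 and 12.9 CPM in intact hemispheres, the highest value of each group being that of fish 3. Of the lesioned hemispheres, 5 lay below the lowest intact one, and 1 intact hemisphere lay above the highest lesioned one. The SD of log2 CPM was 0.50 over lesioned and 0.54 over intact hemispheres, and that of the log2 ratios of the fish was 0.16. Within fish it was lower on the lesioned side in all 10 (exact sign-flip permutation test, p = 0.00195), as were 0.228% of all genes tested, with log2 ratios of -0.59 to -0.02. Over all genes it did not pass the adjusted threshold (log2 fold change -0.31 ± 0.08 SE, adjusted p = 0.117 by edgeR), nor in any of 16 other fits (0.106 to 1.00), and without fish 3 the log2 fold change was -0.29 (adjusted p = 0.166). At a looser adjusted p of 0.4 it would be 1 of the 3.97% of genes called lower.

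Of the 8 genes, 5 sit in 2 clusters. In the later annotation LOC105929572, LOC105929477 and fosab are consecutive protein-coding genes, followed by tmed10. Likewise fosaa and jdp2a are next to each other, between mlh3 and flvcr2a. The gene numbers of the deposited table are consecutive as well, with 15611 for fosab, 15612 for LOC105929477 and 15613 for LOC105929572, and with 393 for jdp2a and 394 for fosaa. The Fos and Jdp2 genes are thus paired at both loci. At the fosab locus all 3 members were called higher, by 2.70-fold, 1.23-fold and 2.26-fold in fosab, LOC105929477 and LOC105929572. At the fosaa locus neither member was called. The nearest other genes at the fosab locus did not pass the test. They were tmed10 (log2 fold change -0.04 ± 0.03 SE, adjusted p = 0.678), eif2b2 (0.05 ± 0.04 SE, adjusted p = 0.685), LOC105929491 (0.10 ± 0.12 SE, adjusted p = 0.812) and LOC105929490 (-0.03 ± 0.20 SE, adjusted p = 0.977), all from edgeR. At the fosaa locus the 1 flanking gene that could be tested, erg28 (LOC105917172 in the deposited table), was at -0.02 ± 0.06 on that scale (SE, adjusted p = 0.931). These neighbours were looked up after the values of the family had been seen.

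**Figure D2:**
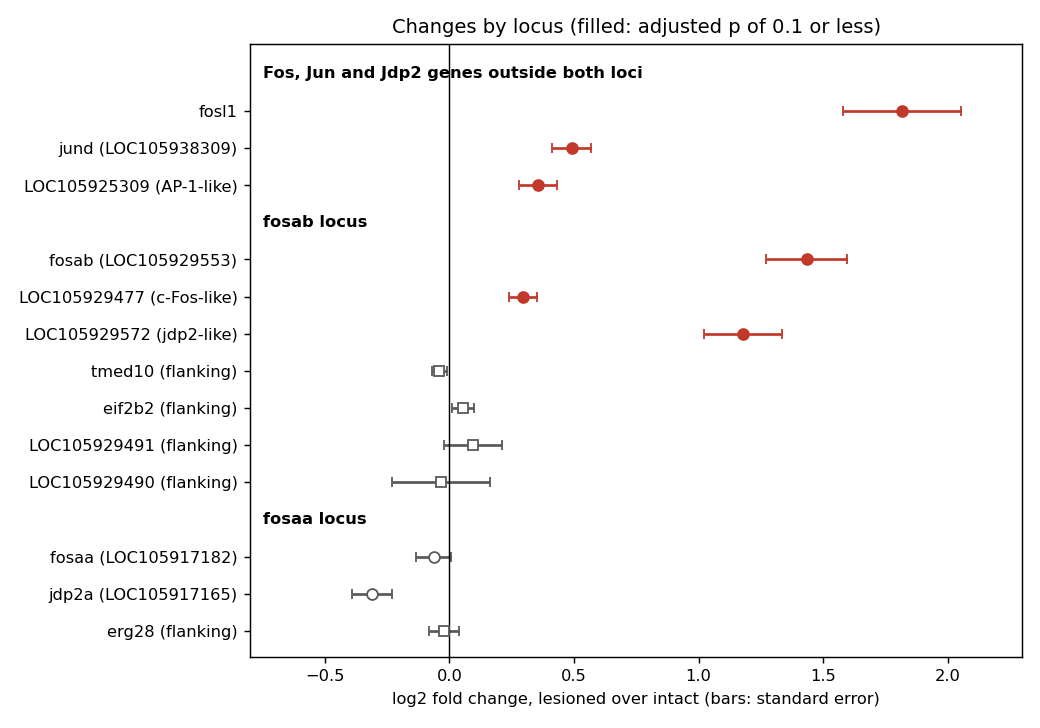
Log2 fold change of lesioned over intact hemispheres (horizontal axis) with its standard error, for the genes outside both clusters, then by locus with the flanking genes as squares. Filled red points had an adjusted p of 0.1 or less, and no flanking gene did. The gene fosl1, shown outside the clusters, had no match in the later annotation.

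Differences between members, copies or not, were tested within fish, as the difference of 2 log2 ratios. All 6 pairs of Fos genes and all 6 pairs of Jun and Jdp2 genes were compared. Each gene is in several pairs, so the pairs are not independent. With p-values adjusted over the 12 pairs, 11 pairs differed below 0.05 in the same exact test. The ratio of fosab was above that of fosaa by 1.50 ± 0.81 on the log2 scale (SD, n = 10 fish) and higher in 9 fish (exact p = 0.00391, adjusted 0.00586). It was above that of its neighbour LOC105929477 by 1.14 ± 0.53 in 10 of 10 fish (exact p = 0.00195, adjusted 0.00586). LOC105929572 was above jdp2a by 1.49 ± 0.67 in 10 of 10 fish (exact p = 0.00195, adjusted 0.00586). The ratio of fosl1 exceeded that of fosab by 0.42 ± 0.46 in 8 fish (exact p = 0.0215, adjusted 0.0234). The pair that did not pass was jund and LOC105925309, with a mean difference of 0.13 ± 0.37 and single fish from -0.42 to 0.71 (exact p = 0.291), which does not show that both genes responded alike. The counts behind fosl1 were 35 to 391 per library, against 1808 to 15768 for fosab.

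The log2 ratios were not alike over the fish, and differences between fish were not tested. Fish 5 had the lowest log2 ratio in 4 of the 8 genes. There, the level was 23.1 CPM in the lesioned and 26.8 CPM in the intact hemisphere for fosl1, and for fosab it was 936 CPM in the lesioned and 785 CPM in the intact hemisphere. For LOC105929572 it was 78.2 CPM in the lesioned and 80.0 CPM in the intact hemisphere. In these 3 genes the intact hemisphere of fish 5 was the highest of the 10 intact ones, whereas its lesioned hemisphere lay within the range of the others. For fosaa the same fish had the highest ratio, 0.39, and the lowest intact level. Fish 7 had the highest ratio in fosab and in jund, at 2.23 and 1.12. Without fish 5 the log2 fold change was 2.07 for fosl1 (adjusted p = 2.1e-06 from edgeR), 1.56 for fosab (1.6e-05) and 1.32 for LOC105929572 (2.5e-05), and 6 genes were called higher. Without fish 3 there were also 6.

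**Figure D3:**
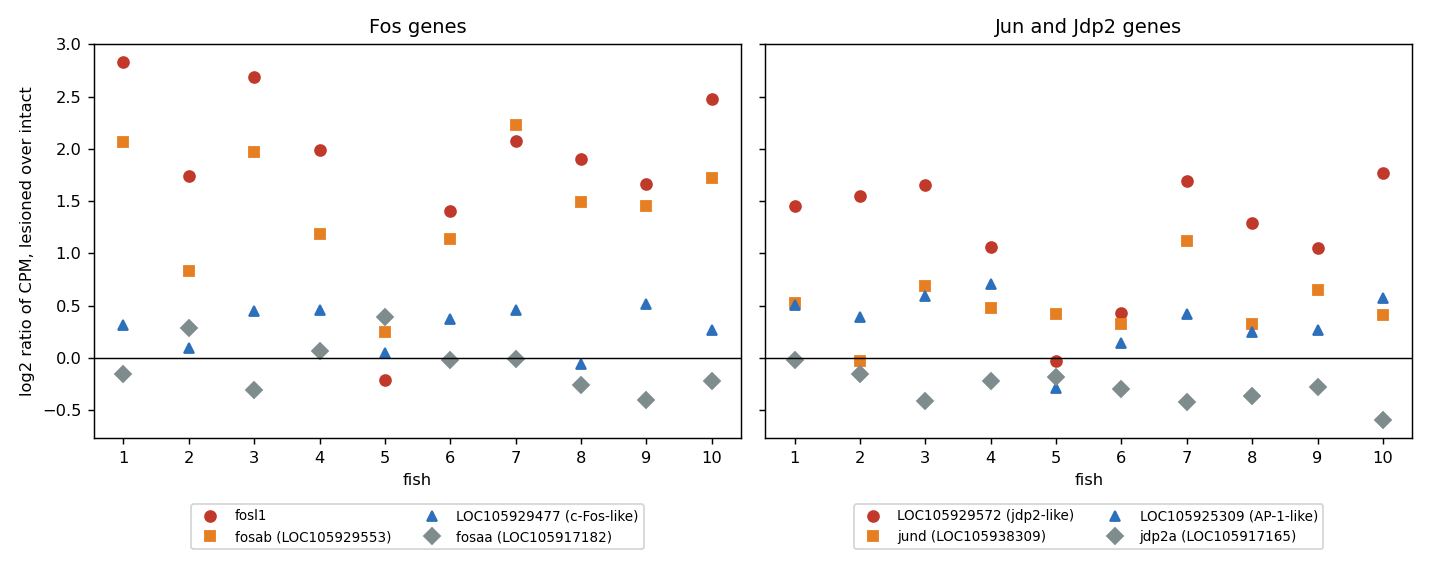
Log2 ratio of CPM, lesioned over intact, in each of the 10 fish (horizontal axis) for the Fos genes (left) and the Jun and Jdp2 genes (right). In fish 5 the ratios of fosl1 and LOC105929572 lie at -0.21 and -0.03, against 1.41 to 2.83 and 0.43 to 1.77 in the other 9 fish.

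The intact hemispheres were a variable baseline for the genes that changed most. Over the 10 intact hemispheres the highest level was 8.01 times the lowest for fosl1, 4.39 times for fosab and 3.14 times for LOC105929572. In each of these genes the highest was that of fish 5 (26.8, 785 and 80.0 CPM). The next highest, of fish 9, were 11.3, 494 and 61.1 CPM, so 1 library made much of this span. The lesioned hemispheres spanned less, by 2.00, 2.10 and 1.67 times for the same genes in this order. On the log2 scale the SD of fosl1 was 0.31 over lesioned and 0.88 over intact hemispheres, and that of fosab was 0.36 over lesioned and 0.61 over intact hemispheres. The intact SD of fosl1 lay above those of 96.2% of all genes tested and that of fosab above 91.0%. For fosaa the SD was 0.13 over lesioned and 0.19 over intact hemispheres, and 47.9% of genes had a lower intact SD. The SD of jund did not have this order, with 0.35 over lesioned and 0.24 over intact hemispheres. Nor did that of LOC105929477, with 0.35 over lesioned and 0.29 over intact hemispheres. These spreads were not tested against each other.

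Over the 15 pairs of the 6 genes called higher, the log2 ratios of the 10 fish had Pearson correlations of 0.18 to 0.89 (median 0.63). With p-values adjusted over the pairs, 5 had an adjusted permutation p under 0.05 for Pearson's r, and none for Spearman's rho (lowest adjusted p = 0.0543). All ratios come from the same 20 libraries. Each ratio also depends on the intact level, which in fosl1, fosab and LOC105929572 varied more over fish than the lesioned one. The part of each side in these correlations was not tested. For fosl1 and fosab, r was 0.86 (permutation p = 0.00152, adjusted 0.0113) and rho was 0.84 (p = 0.00362). Without fish 1 and 5, the farthest from the median of fosl1, r was 0.66 (exact permutation p = 0.0738, n = 8), so the relation rests in part on those fish. For fosl1 and LOC105929572, r was 0.87 (permutation p = 0.00124, adjusted 0.0113) and rho was 0.77 (p = 0.0127), and r was 0.78 without the same fish (exact permutation p = 0.0224, n = 8). At the fosab locus, fosab and LOC105929572 had r of 0.77 (permutation p = 0.00916, adjusted 0.0275) and rho of 0.70 (p = 0.0303), but r of 0.46 without fish 5 and 7 (exact permutation p = 0.249, n = 8). The adjacent genes LOC105929477 and LOC105929572 had r of 0.21 (permutation p = 0.575, adjusted 0.596) and rho of 0.08 (p = 0.838). The 2 other pairs under 0.05 were LOC105925309 with fosl1 (r = 0.89, permutation p = 0.00227, rho = 0.81) and with LOC105929572 (r = 0.81, permutation p = 0.00571, rho = 0.64). Without fish 1 and 5 the first had r of 0.74 (exact permutation p = 0.0356, n = 8), and without fish 4 and 5 the second had r of 0.86 (exact permutation p = 0.00201, n = 8). For jund and fosl1, r was 0.23 (permutation p = 0.468, rho = 0.47).

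**Figure D4:**
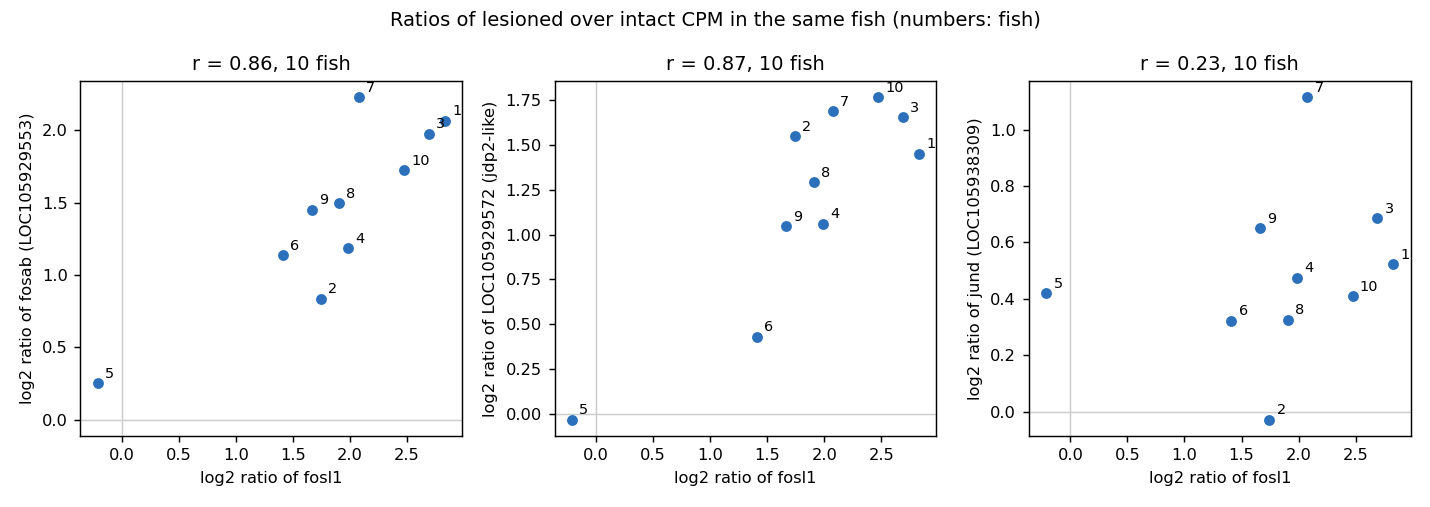
Log2 ratio of lesioned over intact CPM of fosl1 in each fish (horizontal axis) against that of fosab, LOC105929572 and jund (vertical axes), with fish numbers beside the points. Fish 5 lies at the lower left of the first and second plots, where r was 0.86 and 0.87, and at 0.42 on the vertical axis of the third, where r was 0.23.

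Genes with the most similar profiles were sought for the best-counted Fos gene and the best-counted Jun gene, by Pearson's r of log2 CPM over the 20 libraries, as a description. The 5 genes most like fosab were gadd45b (r = 0.98), the tristetraprolin-like gene LOC105920488 (0.97), the early growth response protein 1-like gene LOC105921046 (0.96), nr4a1 (0.96) and the syndecan-4-like gene LOC105918751 (0.95). All 5 were called higher, with log2 fold changes of 0.96 to 2.50. They were picked over lesioned and intact libraries, between which fosab itself differed, so that they rose with it follows from this choice. Over the log2 ratios of the fish, which leave out the shared shift between hemispheres, their r with fosab was 0.80 to 0.96. Those ratios are differences of the same library values, so a high r there follows in part from the choice as well. Tristetraprolin is known in mammals to speed the decay of short-lived messenger RNAs, and nr4a1 encodes an orphan nuclear receptor of the immediate early class. In comparison, r with fosab over the libraries was 0.96 for fosl1, 0.94 for LOC105929572, 0.31 for LOC105929477 and -0.50 for fosaa. The 5 genes most like jund were npas4 (r = 0.93), egr1 (0.92), the early growth response protein 4-like gene LOC105919964 (0.92), dusp4 (0.89) and LOC105916681, described as integral membrane protein 2C-like (0.86). The last of these was not called (log2 fold change 0.35 ± 0.12 SE, adjusted p = 0.277 by edgeR). The genes of the jund list were picked in the same way. Over the ratios of the fish their r with jund was 0.79 to 0.95, a range that the choice favours too. In mammals npas4 is an activity-dependent factor of neurons. The lists for fosab and jund share no gene, but each holds only 5. With each other, fosab and jund had r of 0.69 over the libraries and 0.64 over the ratios of the fish. Libraries of the same fish are not independent points.

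Genes that act with or on AP-1 were counted from lists of names and descriptions. Of 20 genes for leucine zipper partners outside the family (ATF, BATF, MAF, BACH and NFE2-related factors, ddit3 and nfil3), all were tested and none was called at 0.1 by edgeR or by DESeq2, and 3 (mafk, batf and ddit3) had an unadjusted p-value under 0.05. Over all genes tested, 1229 of 10513 had an unadjusted p-value under 0.05, against which the counts of this and the following lists are to be read. The list's median log2 fold change was 0.04. The partner mafk, a small Maf protein, was at 11.6 ± 4.23 CPM in lesioned and 8.26 ± 2.07 CPM in intact hemispheres (SD, n = 10 fish; log2 fold change 0.46 ± 0.13 SE, adjusted p = 0.185), and without fish 5 it was called (0.59, adjusted p = 0.000688). It is named because of that change, after its values had been seen.

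Upstream of AP-1, serum response factor, its Elk and myocardin-related partners and the CREB group switch Fos genes on in mammals. Of these 12 genes none was called by either tool, with 1 at an unadjusted p-value under 0.05 and a median log2 fold change of 0.07. The MAP kinases phosphorylate these factors and Jun itself. Of 8 listed kinase genes 7 were tested, and none was called by either tool or had an unadjusted p-value under 0.05. The kinase median was 0.04. Transcript levels say nothing of phosphorylation, which was not measured.

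Among the phosphatases that switch MAP kinases off, 2 of 6 genes tested were called higher, with a median log2 fold change of 0.13. Over all genes tested 1.28% were called higher. An unadjusted p-value under 0.05 was found for 5 of the 6. The nuclear phosphatase dusp1 was at 128 ± 22.1 CPM in lesioned and 89.7 ± 31.2 CPM in intact hemispheres (SD, n = 10 fish; log2 fold change 0.56 ± 0.07 SE, adjusted p = 0.00106 by edgeR). For dusp4 the levels were 95.7 ± 30.7 CPM in lesioned and 63.4 ± 11.7 CPM in intact hemispheres (0.56 ± 0.11 SE, adjusted p = 0.0161). Without fish 5, 4 were called, with dusp7 and dusp8 added, and without the block of fish 0 were called. Both dusp1 and dusp4 are themselves immediate early genes in mammals.

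Of 17 genes known in mammals as AP-1 targets 14 were tested, and 1 was called higher, against 1.28% of all genes tested. It was LOC105928246, the heparin-binding EGF-like growth factor gene, at 56.0 ± 16.4 CPM in lesioned and 26.5 ± 8.10 CPM in intact hemispheres (SD, n = 10 fish; log2 fold change 1.08 ± 0.09 SE, adjusted p = 2.6e-05 by edgeR). DESeq2 called 1 as well. At an unadjusted p-value under 0.05 there were 3, this gene and 2 that were not called. These were LOC105938151, an interleukin-1 beta-like gene (log2 fold change 0.53 ± 0.21 SE, adjusted p = 0.339, higher in 7 of 10 fish), and cd44 (-0.13 ± 0.04 SE, adjusted p = 0.250, higher in 2 of 10 fish). Both were named after their values had been seen. The median over the list was -0.05.

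Lists of other cell types are given as description, and single genes in some of them were called. Of 9 microglia and macrophage genes 1 was called lower and 0 higher, against 0.0951% and 1.28% of all genes tested. The unadjusted p-value was under 0.05 for 4 of the 9. Their summed level was 173 to 275 CPM in lesioned and 173 to 317 CPM in intact hemispheres. It was lower on the lesioned side in 8 of 10 fish (mean log2 ratio -0.15 ± 0.16, SD, exact sign-flip permutation test, unadjusted p = 0.0137). That p-value was the smallest of the marker lists and was not adjusted over them. In the same test the other lists had unadjusted p-values from 0.0547 (skeletal muscle) to 0.891 (radial glia). Of 6 endothelial genes tested 1, the claudin-5-like gene LOC105915527, was called higher (log2 fold change 0.59, adjusted p = 0.00891). The other 5 had negative log2 fold changes, from -0.13 to -0.01, and none of them was called. The unadjusted p-value was under 0.05 for 3 of the 6, namely LOC105915527, cldn5 and egfl7. The endothelial sum was 564 to 731 CPM in lesioned and 534 to 731 CPM in intact hemispheres and was higher on the lesioned side in 3 of 10 fish. None was called by edgeR or DESeq2 among the genes tested for erythrocytes (3 of 5 listed), meninges or fibroblasts (5 of 7), skeletal muscle (3 of 6), oligodendrocytes (6 of 7) and radial glia (3 of 3), where unadjusted p-values under 0.05 numbered 1, 0, 1, 1 and 0. The muscle gene ckm did not pass the filter on low counts and was at 0 to 42.5 CPM in lesioned and 0 to 3.39 CPM in intact hemispheres. Summed levels of erythrocyte genes were 18.8 to 61.0 CPM in lesioned and 14.4 to 51.3 CPM in intact hemispheres. Skeletal muscle genes summed to 25.3 to 129 CPM in lesioned and 21.4 to 43.6 CPM in intact hemispheres, both sums higher on the lesioned side in 8 of 10 fish. No marker was at 0 in every library. The part of these cells in the changes of the Fos and Jun genes was not tested.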

How the data were processed

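RNA-seq was performed on 20 libraries from 10 fish. Per the labels and the study's methods, the authors removed adapters (CutAdapt), mapped reads to Fundulus_heteroclitus-3.0.2 (STAR) and assigned them to genes (htseq). The deposited counts are raw whole numbers, and the strand setting is not given in the sources used here. The labels name another library kit than the study's methods. The table also holds the authors' DESeq2 fold changes and p-values, which were not used. Of 16264 entries, 2585 transfer RNAs (at most 0.00458% of counts in a library) were left out.

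The test was edgeR 4.0.16 in R 4.3.3, a quasi-likelihood model with TMM scaling and a term for each fish, on genes kept by filterByExpr (minimum count 10, total 15). Benjamini-Hochberg adjustment covered 10513 genes. The SE of a log2 fold change was derived from that test, as its absolute value divided by the square root of the F statistic. The cutoff of 0.1 is the study's. Taken about the group means, both hemispheres of a fish deviated together across genes (r of 0.39 to 0.73, against -0.21 to 0.20 between fish), and both come from 1 animal. Each fish's ratio is a difference of log2 CPM (prior count 2), and sign-flip tests ran over 1024 patterns. Correlations used 100000 resamples. DESeq2 1.42.0, other scalings, no filter, no block, a prior count of 0.5 and each fish left out were the alternatives. The tests were first checked on simulated data.

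Named genes were all family members, up to 4 called genes of each list, and the 5 genes most like the best-counted Fos and Jun genes. Flanking genes, markers and the genes mafk, batf, ddit3, nfil3, dusp7, dusp8, LOC105938151, cd44 and ckm were named outside that rule, after their values had been seen. Members and lists were chosen with earlier results of these data known. Cell type lists describe what the hemispheres held. Gene names and neighbours came from an annotation of MU-UCD_Fhet_4.1, so no coordinates are given, and no sequences were used.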

Additional observations from a re-analysis of the deposited data

Results flagged for a closer look

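Of 24 groups of 10 values (the ratios, lesioned levels and intact levels of 8 genes), 4 held a value far from the others. Chance alone marks about 1 group in 20, here 1.2. In fosl1 the log2 ratio of fish 5 was -0.21, with a gap to the nearest fish of 0.533 of the whole range. In jdp2a (LOC105917165) fish 3 had a log2 CPM of 3.29 in the lesioned and 3.71 in the intact hemisphere, with gaps of 0.497 and 0.587 of the range, so both hemispheres of that fish were high and its ratio, -0.41, was within those of the others. In fosaa (LOC105917182) the lesioned hemisphere of fish 2 had a log2 CPM of 7.21, with a gap of 0.475 of the range.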

How the results depend on the processing

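Without the replicate block, that is, without pairing the hemispheres of a fish, 57 genes were called in place of 145, of which 56 in place of 135 were higher, and 3 of the 8 Fos and Jun genes were called higher in place of 6. MAP kinase phosphatases then numbered 0 in place of 2. The calls of LOC105929477, jund, LOC105925309, dusp1, dusp4 and npas4 were lost, at adjusted p-values of 1.00, 0.101, 0.605, 0.406, 0.125 and 0.101. DESeq2, its size factors in edgeR, upper quartile scaling, total counts and no filter each kept all 6. With each fish left out in turn, 101 to 216 genes were called, 5 to 6 Fos and Jun genes and 2 to 4 phosphatases were higher, and 0 to 1 leucine zipper partners were. The log2 fold change of usf2, never called, changed sign to -0.00350 with upper quartile scaling and ran from -0.0226 to 0.0270 with a fish left out. Without fish 3, 82.5% of calls were higher, against 93.1%. A prior count of 0.5 left 11 of 12 gene pairs and 5 of 15 correlations under 0.05. The calls of fosl1, fosab and LOC105929572 held in all 16 other fits. The causes of these shifts were not tested. Of the 8 genes, jdp2a had the fewest counts, 27 to 129 in a library.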
